A study of Mus musculus with 57 samples.

Results

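Sox1-FOXA2+ cells are the fraction of a differentiating mouse embryonic stem cell (ESC) culture that carried the FOXA2 reporter without the Sox1 reporter. They were taken here by their sample labels, as the libraries of cells that were FACS sorted as Sox1-FOXA2+ at D2, D4 or D6 of differentiation and not replated. These are 9 of the 57 libraries of the series, with 3 biological replicates for each day. The whole series is bulk RNASeq of 19 conditions, in which populations sorted by both reporters and the replated progeny of some of them were profiled along the same days. All 9 libraries share their genotype and their treatment. The cells were Sox1-EGFP/FoxA2mCherry ESCs, in which EGFP takes the place of a Sox1 allele and mCherry is fused to FOXA2. They spent a night in SerumLIF, the medium that keeps ESCs pluripotent, and then 2, 4 or 6 days in N2B27 medium with 1 uM retinoic acid (RA). About 500 sorted cells went into each library. As a model they come from a single reporter clone, and the gates were drawn on fluorescence against unlabelled R1WT cells, so that the population is defined by its reporters and not by a panel of lineage markers. The comparisons of D4 with D2 and of D6 with D4 ask how the cells in this gate differed between days. Each day was a separate sort, and no cell was followed. The study found that the Sox1-FOXA2+ proportion grew with time, so cells sorted at D4 or D6 may be new to the gate. Changes within cells and changes in which cells fill the gate cannot be told apart here.

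FOXA2 is a forkhead transcription factor of the endoderm, the germ layer and the early extraembryonic tissue that line the gut and the yolk sac. The first endoderm of the mouse embryo, the primitive endoderm, depends on GATA6 and GATA4 and forms the visceral endoderm, an absorptive epithelium around the embryo that makes serum carrier proteins, and the parietal endoderm, single cells that migrate over the trophoblast and lay down a thick basement membrane called Reichert's membrane. A basement membrane is a sheet of laminin trimers and a network of type IV collagen, tied together by nidogens and perlecan, and its collagen must be hydroxylated and folded in the endoplasmic reticulum before it is secreted.

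The 9 libraries held between 26156124 and 61358355 counts on genes, with 16459 to 23123 genes detected. Mitochondrial genes took between 6.95% and 17% of the counts, the highest share being in D2 replicate 3. The third D6 replicate stood apart, with a mean correlation of 0.615 to the other libraries of its day against 0.694 to 0.859 for the other 8 libraries, so counts of called genes are also given without it. Each of the 9 libraries had a higher correlation with some library of another day than this mean. A highest value is favoured in advance over a mean, so this does not measure how well the days were separated. For D6 replicate 1 the mean within its day was 0.728 and the highest value with another day 0.914. Bulk libraries of a sort cannot tell apart fewer cells of a type and less RNA per cell. Of 13391 genes whose every exon base lies inside another gene, only 247 (1.84%) had a count in any library, against 87.1% of 32885 genes that share no exon base. Genes of the first kind, Sox1 among them, are therefore not measured here, and a value of 0 says nothing of their expression. Levels below are normalised counts, that is counts divided by the size factor of each library, and changes are log2 fold changes ± their standard error (SE) from a single edgeR fit of the 9 libraries. A gene is called where its p adjusted over all 19407 genes tested is under 0.05.

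The gate was visible in the RNA. Foxa2 (chr2:148042877-148046969, GRCm38) had normalised counts of 3241, 3057 and 1646 at D2, of 2164, 2716 and 2267 at D4 and of 2697, 1478 and 2585 at D6, in the order of the replicate numbers as everywhere below. In the 18 libraries of Sox1-FOXA2- and Sox1+FOXA2- cells of the same days it ran from 0 to 324. Within Sox1-FOXA2+ cells the libraries of the 3 days overlapped, and the log2 fold change was -0.17 ± 0.36 from D2 to D4 (adjusted p = 1) and -0.19 ± 0.36 from D4 to D6 (adjusted p = 1). The cells of each day were sorted on mCherry fused to FOXA2, so the gate itself constrains this level. That no change in Foxa2 was detectable holds for cells chosen in this way.

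Col4a1 and Col4a2, the chains of the common type IV collagen, start head to head, and their promoter windows are printed because both genes were among those called higher at D4, described further on. Col4a1 is on the minus strand at chr8:11198423-11312826 and Col4a2 on the plus strand at chr8:11312805-11449287 (GRCm38). The windows below are from RefSeq (GRCm38.p6), run from 250 bases before to 50 bases after each start and are written 5′ to 3′ on the strand of their gene. They cover chr8:11312777-11313076 (minus strand) for Col4a1 and chr8:11312555-11312854 (plus strand) for Col4a2. Capitals mark the stretch of 78 bases that both windows cover, each in its own direction.
Col4a1: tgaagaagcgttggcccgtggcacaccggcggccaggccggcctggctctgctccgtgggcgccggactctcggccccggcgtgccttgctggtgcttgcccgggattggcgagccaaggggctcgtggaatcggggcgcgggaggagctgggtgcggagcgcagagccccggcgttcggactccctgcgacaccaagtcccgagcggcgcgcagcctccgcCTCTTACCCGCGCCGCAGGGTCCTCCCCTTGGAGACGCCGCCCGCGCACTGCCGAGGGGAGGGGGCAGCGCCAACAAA
Col4a2: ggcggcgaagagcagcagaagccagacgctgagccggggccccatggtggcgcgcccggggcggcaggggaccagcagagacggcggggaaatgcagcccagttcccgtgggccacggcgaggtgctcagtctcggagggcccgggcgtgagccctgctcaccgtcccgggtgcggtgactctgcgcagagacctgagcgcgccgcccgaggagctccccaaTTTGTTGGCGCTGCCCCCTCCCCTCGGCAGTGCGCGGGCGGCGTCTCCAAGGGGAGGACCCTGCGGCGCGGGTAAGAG

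From D2 to D4, 120 genes rose (0.618% of the genes tested) and 3 fell (0.0155%). At an unadjusted p under 0.05 there were 1604 genes, 1277 higher and 327 lower at D4. Of the 120 genes, 119 are protein coding, 2 had no count in any D2 library, and their median log2 fold change was 2.65, against 0.08 for all genes. The smallest change called in either direction was 1.22 on the log2 scale. All 120 were also called at D6 against D2, and their median change from D4 to D6 was 0.48. None of the 120 overlapped between D2 and D4. Over all genes tested, 1798 were higher and 1016 lower at D4 than at D2 without overlap. The number of called genes depended on single libraries, with 78 genes called without D4 replicate 1 and 223 without D6 replicate 3.

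**Figure D1:**
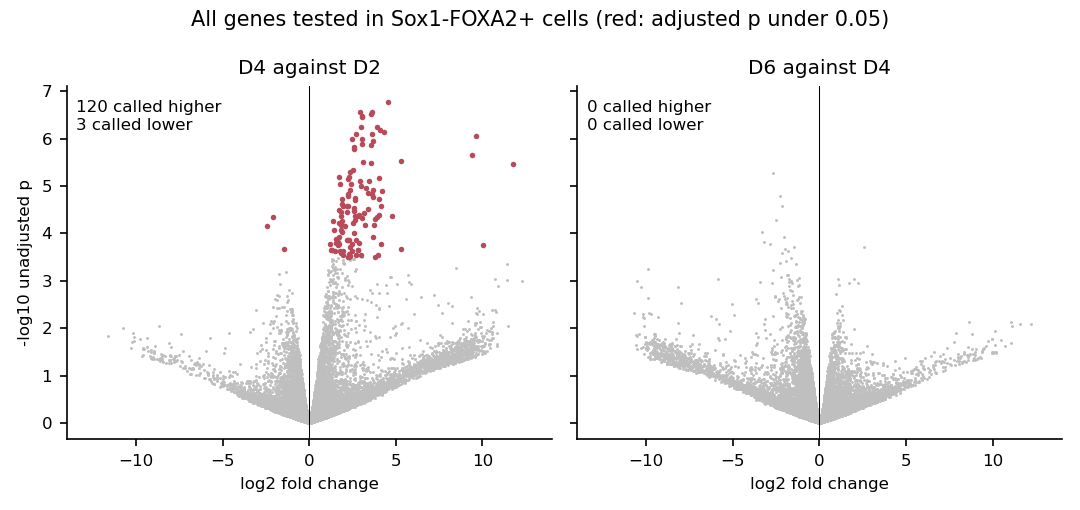
Volcano plots of the 19407 genes tested in Sox1-FOXA2+ cells, with the log2 fold change on the x axis and -log10 of the unadjusted p on the y axis, for D4 against D2 (left) and D6 against D4 (right). Red points are called genes, 120 higher and 3 lower at D4 than at D2 and 0 between D6 and D4, where more of the small p-values lie on the lower side.

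Of 17 listed genes of the basement membrane, 8 rose from D2 to D4 in the edgeR fit and 0 fell, while 12 had a positive and 5 a negative log2 fold change, and the median was 2.41 against 0.08 for all genes. Together the 17 genes took 0.326%, 0.408% and 0.426% of all counts at D2, 4.24%, 1.91% and 3.31% at D4, and 6.89%, 3.43% and 3.25% at D6. The days D2 and D4 did not overlap in this share. The gene lists here and below were chosen with earlier results of these data known. Their counts and medians beside those of all genes are therefore a description and not a test. The DESeq2 Wald test, the fit without a filter and that with the replicate block each called 10 higher and 1 lower at D4, and leaving out D6 replicate 3 gave 9 and 1.

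The laminin 111 trimer, the first laminin of the embryo, rose in all its chains. Lama1 (chr17:67697259-67822647), its alpha chain, went from 2891, 15672 and 24999 normalised counts at D2 to 385741, 141849 and 288886 at D4, and stood at 605983, 288349 and 284521 at D6. The lowest D4 library was thus above the highest D2 library, while D4 and D6 overlapped (log2 fold change 4.22 ± 0.67 from D2 to D4, adjusted p = 0.00648). Lamb1 (chr12:31265234-31329644), the beta chain, had 12026, 14528 and 18961 at D2, 165151, 80661 and 137653 at D4, and 297704, 143763 and 167496 at D6. Its log2 fold change was 3.06 ± 0.39 at D4 (adjusted p = 0.00135). Lamc1 (chr1:153218922-153332786), the gamma chain, had 11191, 13809 and 21336 at D2, 251649, 111016 and 216825 at D4, and 453022, 209512 and 202995 at D6. Its rise was 3.63 ± 0.45 (adjusted p = 0.00129). In all 3 chains the D2 and D4 libraries did not overlap. Lamb2, the alternative beta chain, rose from between 85.48 and 551.2 to between 1643 and 3049 (2.88, adjusted p = 0.0329). Lama5, the alpha chain of mature epithelial basement membranes, went from 7120, 3794 and 4181 to 5204, 4103 and 3169 and then to 1956, 2331 and 629.7, with log2 fold changes of -0.28 ± 0.43 and -1.42 ± 0.44 (adjusted p = 1 for both).

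Both collagen chains of the shared promoter rose. Col4a1 had 8891, 13311 and 12985 normalised counts at D2, 294435, 111248 and 200019 at D4, and 593566, 209750 and 240518 at D6. Col4a2 had 4604, 3842 and 7202 at D2, 94123, 35926 and 72619 at D4, and 184853, 75692 and 68144 at D6. D2 lay below D4 in every library of both genes, with log2 fold changes of 4.08 ± 0.50 for Col4a1 (adjusted p = 0.00129) and 3.69 ± 0.47 for Col4a2 (adjusted p = 0.00138). Since 23.7% of the exon bases of Col4a1 and 16.6% of those of Col4a2 lie inside another gene, their levels may be understated. The other collagen IV chains, Col4a3 to Col4a6, were not called. Sparc, a collagen-binding protein of basement membranes, went from 4972, 5784 and 17269 to 142602, 78086 and 108185 and then to 288429, 186205 and 192405, a rise of 3.56 ± 0.47 at D4 (adjusted p = 0.00152).

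Among the linkers, Nid1, which ties laminin to collagen IV, went from 867.2, 1591 and 3041 to 11530, 5165 and 10555 (2.30, adjusted p = 0.0495) and reached 37779, 12087 and 15357 at D6. Nid2 (1.29, adjusted p = 0.185) and the perlecan gene Hspg2 (2.41, adjusted p = 0.0502) did not pass at D4, but both did at D6 against D2, with 1.88 (adjusted p = 0.0106) and 2.19 (adjusted p = 0.0387). Agrn, the gene of the proteoglycan agrin, had log2 fold changes of -0.08 at D4 and -0.13 at D6 against D2. At D6 against D2, 10 genes of the list were higher and 1, Col18a1, was lower. Without a single library some of these calls were lost. Those of Lamb2 ended without D2 replicate 1, D4 replicate 1 or D4 replicate 3 (adjusted p from 0.0514 to 0.111), those of Nid1 without D2 replicate 1, D2 replicate 2, D4 replicate 1 or D4 replicate 3 (0.0971 to 0.156), and that of Hspg2 at D6 without D2 replicate 1, D2 replicate 3 or D6 replicate 1 (0.0909 to 0.127).

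**Figure D2:**
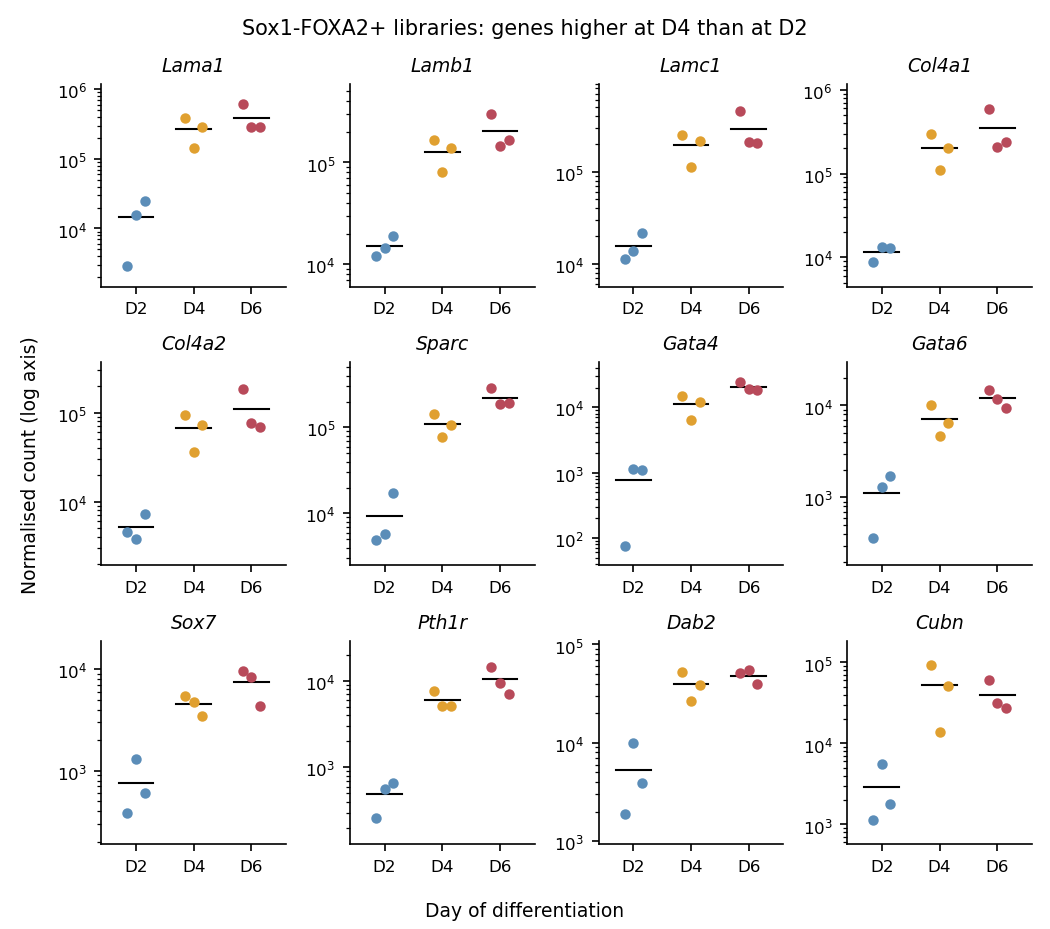
Normalised counts on a log axis in each of the 9 Sox1-FOXA2+ libraries for 12 genes that were called at D4 against D2, with a bar at the mean of each day (n = 3). For each of the 12 genes the D2 libraries lie below the D4 libraries, while D4 and D6 overlap in most panels, the exceptions being Sparc and Gata4.

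Enzymes and chaperones that prepare collagen for secretion rose as well. Of 20 listed genes, 7 rose at D4 and none fell, 18 had a positive log2 fold change, and the median was 1.47. The list took 0.122% to 0.144% of the counts at D2, 0.362% to 0.584% at D4 and 0.472% to 0.843% at D6. Plod2, a lysyl hydroxylase that sets the kind of collagen cross-link, went from 2668, 2719 and 1674 normalised counts to 19337, 17299 and 21156 and then to 48323, 21040 and 24173 (3.01 ± 0.37 at D4, adjusted p = 0.00129). P4ha1, a catalytic subunit of prolyl 4-hydroxylase, which makes the triple helix stable, went from 2793, 2435 and 1462 to 16328, 11929 and 12145 and then to 33091, 18643 and 21212 (2.57 ± 0.34, adjusted p = 0.00152). Serpinh1, the collagen chaperone HSP47, went from 8243, 10299 and 9810 to 66375, 27712 and 34544 and then to 75882, 39958 and 40457 (2.16, adjusted p = 0.0117). In these 3 genes every D4 library was above every D2 library.

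Loxl2, an oxidase that cross-links collagen IV outside the cell, had 628.7, 524.2 and 1519 normalised counts at D2, 5079, 4730 and 6063 at D4, and 24984, 20609 and 8628 at D6. It rose by 2.58 ± 0.44 at D4 (adjusted p = 0.0102). Of its exon bases, 41.7% lie inside another gene. The days did not overlap, and its further 1.70 from D4 to D6 was not called (adjusted p = 0.612). P4ha2 (2.29, adjusted p = 0.0295), P4hb, the beta subunit of the same hydroxylase (1.49, adjusted p = 0.0407), and Crtap, a partner of the prolyl 3-hydroxylases (1.94, adjusted p = 0.048), also rose. The other lysyl hydroxylases Plod1 and Plod3, the prolyl 3-hydroxylases P3h1 to P3h4, Lox, Loxl1, Loxl3, Loxl4 and the remaining genes were not called. This count was the least stable of the groups, with 3 of the 7 left without D2 replicate 1 and 4 without D2 replicate 2, D4 replicate 1 or D4 replicate 3. The call of Crtap was lost without any library but D6 replicate 3 (adjusted p from 0.0654 to 0.281), whereas Plod2, P4ha1 and Loxl2 were called with any of the 9 libraries left out.

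Products of parietal endoderm followed the same course. Of 20 listed genes, 9 rose at D4 and none fell, 17 had a positive log2 fold change, and the median was 2.87. Pth1r, the receptor for parathyroid hormone-related protein and a long-used marker of parietal endoderm, went from 260.1, 566.4 and 663 normalised counts at D2 to 7629, 5167 and 5128 at D4 and to 14706, 9577 and 7034 at D6 (3.58 ± 0.41 at D4, adjusted p = 0.00113). Its level may be understated, since 36.1% of its exon bases lie inside another gene. Fst, the gene of the activin antagonist follistatin, went from 180.7, 229.9 and 1053 to 5569, 8459 and 5345 and then to 26887, 13332 and 4316 (3.76, adjusted p = 0.0168). Its D4 and D6 libraries overlapped through D6 replicate 3. Srgn, the proteoglycan core protein serglycin, went from 186.1, 694.2 and 1785 to 14442, 7659 and 10815 and then to 24030, 18639 and 14929 (3.63, adjusted p = 0.0069). Tfpi, an inhibitor of coagulation, went from 679.3, 1651 and 3143 to 15463, 8610 and 10402 (2.65, adjusted p = 0.00793).

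Cryab, a small heat shock protein, went from 36.13, 193.6 and 144.7 normalised counts to 2764, 3034 and 1712 and to 4860, 4514 and 6726 at D6 (4.30, adjusted p = 0.00129). Pdgfra, the receptor for platelet-derived growth factor that marks primitive endoderm, had 32.52, 975.6 and 960 at D2 and 12404, 5561 and 10496 at D4 (3.82, adjusted p = 0.0495). The lysosomal proteases Lgmn and Ctsl rose by 2.68 (adjusted p = 0.0462) and 2.61 (adjusted p = 0.0113). At D6 against D2 the pepsinogen gene Pga5, from 25.29, 0 and 0 to 1215, 659.3 and 1196, and Snai1, a repressor of E-cadherin, from 56, 16.7 and 135.9 to 971.1, 480.3 and 2862, were called as well. Other markers of the same layer were not called. Plat, the tissue plasminogen activator gene, had 1601, 844 and 995.1 at D2, 1953, 1689 and 2632 at D4, and 4179, 2465 and 935.9 at D6. Thbd, the thrombomodulin gene, was at 0 in 2 of the D2 libraries and 1 of the D6 libraries. The calls of Pdgfra and Lgmn were each lost without any of 4 libraries, namely D2 replicate 3 and any D4 replicate for Pdgfra (adjusted p from 0.0524 to 0.1) and D2 replicate 1 or 3 and D4 replicate 1 or 2 for Lgmn (0.0552 to 0.229). Pga5 was not called at D6 without D6 replicate 1 (0.0706), nor Snai1 without D2 replicate 1 or D6 replicate 3 (0.0615 and 0.0526).

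Of 9 tested genes for the receptors by which yolk sac endoderm takes up protein, 4 rose at D4, all 9 had a positive log2 fold change, and the median was 2.40 from D2 to D4 and -0.22 from D4 to D6. Cubn, the gene of the receptor cubilin, had 1151, 5647 and 1795 normalised counts at D2, 93424, 13838 and 51688 at D4, and 60434, 31734 and 27450 at D6 (4.14 ± 0.70 at D4, adjusted p = 0.00985). Lrp2, the gene of its partner megalin, had 9364, 8772 and 12719 at D2, 98265, 31610 and 54277 at D4, and 93901, 47206 and 23676 at D6 (2.57, adjusted p = 0.0222). Dab2, the adaptor that links such receptors to clathrin, had 1872, 9989 and 3895 at D2, 52588, 26436 and 38636 at D4, and 50715, 54889 and 39472 at D6 (2.85, adjusted p = 0.0127). For these 3 genes D2 did not overlap with either later day. Lrpap1, a chaperone of this receptor family that is also in the parietal list, rose by 3.08 ± 0.36 (adjusted p = 0.00113). Amn, the gene of amnionless, which cubilin needs to reach the membrane, had 121, 18.67 and 0 at D2 and 481.6, 20.86 and 249.2 at D4 and was not called (adjusted p = 1). The call of Lrp2 was lost without D2 replicate 1, D2 replicate 2 or D4 replicate 1 (adjusted p from 0.0546 to 0.0887).

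Of 12 tested genes for the serum carriers of visceral endoderm, edgeR called 0 at D4 and the median was 0.21. DESeq2, the fit without a filter, the replicate block and the fits without D2 replicate 2, D2 replicate 3 or D6 replicate 3 each called 1 higher. Ttr, the gene of transthyretin, had 350.5, 0 and 2.192 normalised counts at D2, 98.18, 157.8 and 41.28 at D4, and 0 in all D6 libraries. Apoa1 ran from 0 to 76.2 over the 9 libraries, and Apob had 632.3, 470.6 and 1265 at D2, 100, 226.6 and 308 at D4, and 297.2, 401.7 and 563.9 at D6. Afp was at 0 in 6 of the 9 libraries, but 63.8% of its exon bases lie inside another gene, and the same holds for 95.9% of those of the transferrin gene Trf, so that these 2 are undercounted. At D6 against D2 edgeR called a single gene of the list, the transcriptional cofactor gene Cited1, from 23.49, 98.25 and 0 to 1085, 1303 and 1332 (adjusted p = 0.043). Without D2 replicate 1, D4 replicate 2, D6 replicate 1 or D6 replicate 2 it was not (0.0633 to 0.119), nor in the fit of 39 libraries (0.423), and DESeq2, which gave it no adjusted p, called 0 genes of the list higher and 1 lower. Of the 8 tested genes of the anterior visceral endoderm, the signalling centre that positions the head, edgeR called 0 in any comparison, whereas DESeq2 called 1 lower at D4 than at D2, the fit without a filter 1 higher and 1 lower, and the replicate block 1 higher at D6 than at D2.

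Of 15 tested endoderm transcription factors, 3 rose at D4, 12 had a positive log2 fold change, and the median was 1.20. Gata4 (chr14:63198922-63271692) went from 75.88, 1139 and 1112 normalised counts to 14783, 6476 and 12158 and then to 24770, 19064 and 18266 (3.81 ± 0.68 at D4, adjusted p = 0.0137). Gata6 went from 364.9, 1288 and 1703 to 10107, 4678 and 6504 and then to 14837, 11764 and 9394 (2.65 ± 0.47, adjusted p = 0.0127). Sox7, a factor of parietal endoderm, went from 381.2, 1310 and 602.7 to 5413, 4788 and 3485 and then to 9544, 8287 and 4332 (2.54 ± 0.46, adjusted p = 0.0156). Every D4 library was above every D2 library for the 3 genes, and the D2 replicate 1 library was the lowest in all of them. The related factor Sox17 had 175.2, 787 and 537 at D2, 1584, 2164 and 1535 at D4, and 2443, 3515 and 629.7 at D6, with adjusted p = 0.465 at D4. Hnf4a, a regulator of visceral endoderm, was not called (0.14, adjusted p = 1). Without D2 replicate 2 the count of this list was 5 in place of 3, and the call of Sox7 was lost without D2 replicate 1, D2 replicate 3 or D4 replicate 2 (adjusted p from 0.0549 to 0.0651). In a fit of all 39 sorted libraries, in which every population shares the spread, the calls at D4 were 0 of the transcription factors, 6 of the basement membrane, 2 of collagen processing, 3 of the parietal products and 2 of the endocytic receptors. Several genes of these lists, among them Gata4, Gata6, Sox7, Lamb1, Dab2 and Fst, are ones the study itself singled out in these libraries, so that their direction is not independent evidence.

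**Figure D3:**
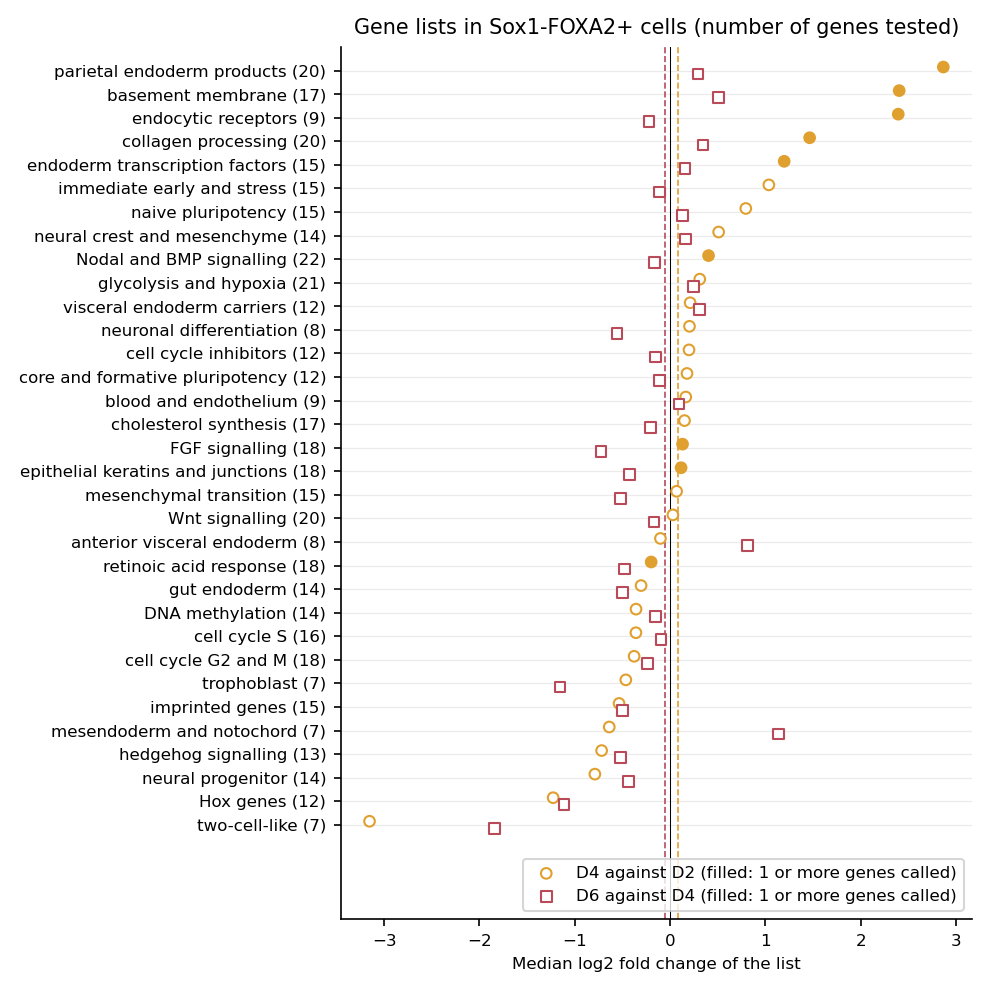
Median log2 fold change of each of 33 gene lists in Sox1-FOXA2+ cells for D4 against D2 (circles) and D6 against D4 (squares), with the number of genes tested in parentheses, filled symbols for lists with 1 or more called genes, and dashed lines at the medians of all genes (0.08 and -0.06). The lists were chosen with earlier results of these data known. Genes without a count on a day enter at the fold against 3 counts. Basement membrane, parietal endoderm products, endocytic receptors, collagen processing and endoderm transcription factors lie furthest to the right at D4, and the squares of these 5 lists lie between -0.22 and 0.51.

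Outside these groups, the largest changes at D4 among called genes whose days did not overlap were of diverse kind. Frzb, the gene of a secreted Wnt antagonist, had no count at D2, 178.8, 564.8 and 344.5 normalised counts at D4 and 1024, 836.1 and 684.1 at D6, which is at least 490-fold higher at D4 against a floor of 3 counts over the D2 libraries. Nppb, the gene of a natriuretic peptide, was also at 0 in all D2 libraries and had 270.5, 20.29 and 41.28 at D4, at least 150-fold higher, or at least 42-fold without D4 replicate 1. The kinase gene Ptk6 went from 0, 0 and 2.192 to 287.1, 534.3 and 777.1, and Capn6, a calpain-like gene, from 0, 0.9825 and 0 to 403.8, 612.1 and 119.1. In these 4 genes D2 was at or near 0, and the fitted fold changes depend on the prior count.

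Arhgap6, a GTPase-activating protein gene, went from 240.3, 808.1 and 488.8 normalised counts to 22518, 3957 and 36394 (5.29), and 50.1% of its exon bases lie inside another gene. Cemip, whose protein takes part in the breakdown of hyaluronan, went from 35.23, 569.9 and 852.6 to 16935, 4752 and 19860 (4.81). Hs3st1, a heparan sulfate sulfotransferase, went from 90.33, 117.9 and 354 to 4989, 2752 and 5583 and then to 12661, 6392 and 12033 (4.58 ± 0.51 at D4, adjusted p = 0.00113). Eva1a, an endoplasmic reticulum protein gene linked to autophagy, rose by 5.30 (adjusted p = 0.0393). The call of Nppb was lost without any D2 replicate or D4 replicate 1 (adjusted p from 0.051 to 0.0918), and that of Eva1a without D2 replicate 1 or D4 replicate 1 (0.0776 and 0.114). Single genes of further lists rose as well, namely the keratin gene Krt8, from 1595, 1193 and 2370 to 8345, 10664 and 5093 (2.24, adjusted p = 0.00441), and Fgf10, the gene of a secreted growth factor, from 383, 508.9 and 247.7 to 5526, 1542 and 6051 (3.48, adjusted p = 0.00471).

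All 3 genes that fell at D4 can be named. Stra8, a gene named for its stimulation by RA and known for its part in the entry of germ cells into meiosis, had 25080, 26340 and 31011 normalised counts at D2, 2242, 6748 and 6641 at D4, and 1370, 1105 and 475.1 at D6. It fell by 2.40 on the log2 scale from D2 to D4 (SE 0.44, adjusted p = 0.0168). The 3 days did not overlap, and its further drop of 2.48 to D6 as fitted was not called (adjusted p = 0.257). The glutathione transferase gene Gsta4 had 3418, 3563 and 5810 at D2, 863.3, 1302 and 889 at D4, and 743.1, 1301 and 1139 at D6 (-2.06, adjusted p = 0.0127). The histone gene Hist1h4k had 4579, 7188 and 10324 at D2, 2518, 2594 and 3023 at D4, and 3956, 4835 and 4966 at D6 (-1.45, adjusted p = 0.0393), and it is one of many near-identical copies between which reads may be split. Chd9 (-1.32, adjusted p = 0.0814) and Grb10 (-1.73, adjusted p = 0.0886) came next by p and were not called. The call of Hist1h4k was lost without any of 5 libraries, D2 replicates 2 and 3 and the 3 D4 replicates (adjusted p from 0.137 to 0.238), and that of Gsta4 without D2 replicate 3, D4 replicate 1 or D4 replicate 3 (0.0764 to 0.107).

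From D4 to D6 edgeR called 0 genes (0% of the genes tested), with a smallest adjusted p of 0.103. At an unadjusted p under 0.05 there were 859 genes, of which 203 were higher and 656 lower at D6, and the DESeq2 Wald test called 154, of which 34 were higher and 120 lower. The labels do not say what a replicate number shares. Same-numbered libraries of D4 and D6 were taken as pairs because their deviations from the day means correlated in these data (0.213, 0.316 and 0.229). With the numbers as a block, 4 genes were called. This fit was thus chosen from the same data, and it also blocks the D2 libraries, whose numbers did not pair. Col18a1, the gene of a collagen of basement membranes whose fragment is endostatin, had 28625, 30018 and 22919 normalised counts at D2, 14286, 9600 and 9573 at D4, and 3635, 2927 and 1377 at D6, a change of -2.25 ± 0.28 from D4 in the blocked fit (adjusted p = 0.00424) and of -2.15 ± 0.36 without the block (adjusted p = 0.172). Igfbp5, a binding protein of insulin-like growth factors, went from 10318, 9061 and 4440 at D4 to 946.6, 1157 and 1969 at D6 (-2.60 in the blocked fit, adjusted p = 0.0104). Fras1, whose protein anchors epithelia to their basement membrane, went from 5992, 11416 and 6962 to 2007, 1620 and 1766 (-2.29, adjusted p = 0.0104). Ccn2, a matricellular protein gene, went the other way, from 866, 1001 and 1449 to 3965, 3645 and 14467 (2.33, adjusted p = 0.0104), and 45.0% of its exon bases lie inside another gene. For these 4 genes every D6 library lay on the same side of every D4 library. Of the exon bases of Col18a1, 33.5% lie inside another gene.

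Single libraries also decided this comparison. Without D6 replicate 1, 7 genes were called, all lower at D6, which were Olfm1, Chst11, Il17rd, Cdh2, Cyp26b1, Fstl1 and Col18a1. Without D6 replicate 3 there were 3, Igfbp5 and Prdm1 lower and Loxl2 higher, and without D2 replicate 2, D4 replicate 1 or D4 replicate 3 there was 1. These genes were taken because they were called, after their values were seen. Among genes that came closest by p without any block, Pdpn, the gene of podoplanin, a mucin-like membrane protein, had 46.97, 166 and 67.94 normalised counts at D2, 1306, 645.9 and 911.3 at D4, and 4213, 3989 and 3927 at D6. It was called at D4 against D2 (3.29, adjusted p = 0.00567), and its further 1.99 was not (adjusted p = 0.612). Tinagl1, whose protein belongs to the matricellular group, had 110.2, 13.76 and 37.26 at D2, 904, 939 and 789 at D4, and 3459, 3934 and 6076 at D6 (4.05 from D2 to D4, adjusted p = 0.00441, and 2.23 from D4 to D6, adjusted p = 0.612). Rassf3 had 3863, 3554 and 3766 at D4 and 8662, 7809 and 8907 at D6 (1.08, adjusted p = 0.612). Bmp7, a ligand of the bone morphogenetic protein family, had 1778, 1097 and 1397 at D2, 820.7, 582.3 and 916 at D4, and 120.1, 85.14 and 37.21 at D6 (-3.32 from D4 to D6, adjusted p = 0.356). The libraries of the 3 days did not overlap in Pdpn, Tinagl1 or Bmp7. Lack of overlap between D4 and D6 was a condition for naming these genes. Over all 19407 genes tested, 740 were higher and 1064 lower at D6 than at D4 without overlap.

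Over the whole span, from D2 to D6, 271 genes rose (1.4% of the genes tested) and 113 fell (0.582%). The 271 include all 120 genes that had risen by D4, and their median change was 1.87 from D2 to D4 and 0.52 from D4 to D6. The 113 include 2 of the 3 genes that had fallen by D4, and their median was -0.90 from D2 to D4 and -1.30 from D4 to D6. These comparisons share libraries and the sets were chosen by the D6 against D2 contrast, so the medians are given as a description. Without D2 replicate 1 there were 229 called genes in all, and without D6 replicate 3 there were 579.

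Of the 113 genes that fell by D6, 12 belong to one of the lists. Of the imprinted genes, 3 of 15 tested fell, with a list median of -0.90 against 0.01 for all genes. Grb10, a growth inhibitor that binds the insulin receptor, had 3924, 3247 and 2957 normalised counts at D2, 813.2, 850 and 1427 at D4, and 380.7, 510.8 and 243.3 at D6 (-3.26 at D6, adjusted p = 7.9e-04). Mest had 13664, 12340 and 20728 at D2, 4661, 3585 and 4784 at D4, and 1543, 4009 and 592.5 at D6 (-2.999, adjusted p = 0.00546), and Peg10, a gene derived from a retrotransposon, had 111325, 87067 and 62792 at D2, 51023, 83291 and 33783 at D4, and 26402, 26380 and 21257 at D6 (-1.93). In each of the 3 genes the D6 libraries lay below all D2 libraries. The imprinted genes Peg3 and H19, by contrast, had their highest mean at D4, where Peg3 had 66343, 119286 and 65888 and H19 had 12485, 25158 and 16271, and neither was called at D6 against D2. The call of Peg10 was lost without D2 replicate 1 (adjusted p = 0.0561).

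In the edgeR fit of the signalling lists, hedgehog had 1 gene lower at D6 than at D2 of 13 tested, FGF 1 lower and 1 higher of 18, Nodal and BMP 1 lower and 1 higher of 22, and Wnt 0 of 20. The higher ones were Fgf10 (2.81) and Fst (4.896). Ptch1, a hedgehog receptor that is itself switched on by the pathway, had 11564, 26742 and 20092 normalised counts at D2, 4718, 2339 and 9679 at D4, and 1091, 4098 and 1331 at D6 (-3.28 at D6, adjusted p = 0.0056), and the 13 tested hedgehog genes had a median of -0.97. Fgfr1, a receptor of fibroblast growth factors, had 4135, 2905 and 4311 at D2, 1424, 1820 and 1517 at D4, and 579.2, 615.6 and 1231 at D6 (-2.36, adjusted p = 0.00221). Another receptor of that family, Fgfr2, had 19273, 14958 and 48407 at D2 and 20819, 46804 and 57050 at D6 and was not called. Fzd2, a Wnt receptor, fell by 3.80 on the log2 scale (adjusted p = 0.0119). Cdh2, the gene of N-cadherin, had 4889, 3781 and 3674 at D2, 2378, 3271 and 3209 at D4, and 1403, 371.1 and 692.6 at D6 (-2.42, adjusted p = 0.00694). From D2 to D6 Bmp7 fell by 4.21 on the log2 scale (adjusted p = 0.00245). Col18a1 fell by 3.45 (adjusted p = 1.6e-04) and Igfbp5 fell by 1.76 (adjusted p = 0.0231). The levels of Igfbp5 were 4090, 5351 and 2908 at D2, so its mean was highest at D4, and its call at D6 was lost without D2 replicate 1 or 2 or D6 replicate 1 or 2 (adjusted p from 0.0553 to 0.119).

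Among the largest falls by size were genes that reached 0. Nat8l, the gene of an enzyme that makes N-acetylaspartate, had 372.2, 329.1 and 604.9 normalised counts at D2, 107.4, 101.5 and 92.08 at D4, and 0 in all D6 libraries, at least 377-fold lower. Lgi2, a secreted leucine-rich protein gene, had 516.7, 186.7 and 192.9 at D2, 47.24, 185.4 and 230.2 at D4, and 0 at D6, at least 259-fold lower, or at least 165-fold without D2 replicate 1. Cabp7 (at least 250-fold lower) reached 0 as well. Dusp27 was left with 12.21, 0 and 20.04 at D6 after 422.7, 253.5 and 1199 at D2, Usp26 with 10.18, 2.183 and 2.862 after 547.4, 437.7 and 734.2, and Gbx2, a homeobox gene of the early nervous system, with 101.8, 43.66 and 8.587 after 798.5, 1243 and 905.2. Of the exon bases of Gbx2, 43.5% lie inside another gene, as do 29.6% of those of Cabp7. The call of Nat8l was lost without D2 replicate 3 (adjusted p = 0.0518). Those of Lgi2 and Cabp7 were lost without any library but D2 replicate 3 and D6 replicate 3 (up to 0.173), and those of Usp26, Dusp27 and Gbx2 without any of 6 of the 9 libraries (up to 0.231), D2 replicate 1 and D6 replicate 2 among them in each. On the other side, Ankrd1 was at 0 at D2 and had 87.54, 6.549 and 2834 at D6, so that the change rested on D6 replicate 3 (adjusted p = 0.321 without it). Vnn1, the gene of a pantetheinase, went from 0 at D2 to 238.2, 128.8 and 254.7 at D6, at least 280-fold higher, and Synpo2l from 0, 0 and 2.192 to 40.72, 585 and 1182. The call of Synpo2l was lost without D2 replicate 1 or 2 (adjusted p = 0.0618 and 0.0533), and that of Vnn1 without any D2 replicate, D4 replicate 1 or 3, or D6 replicate 1 (0.0622 to 0.111).

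**Figure D4:**
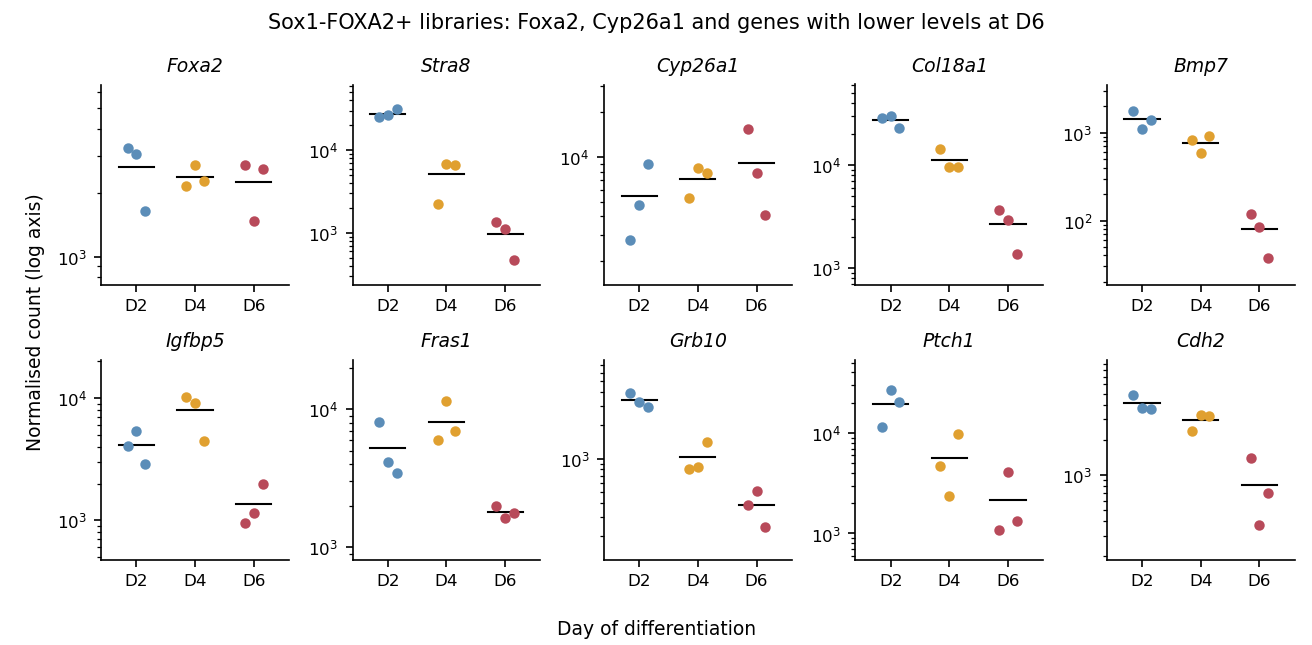
Normalised counts on a log axis in each of the 9 Sox1-FOXA2+ libraries for Foxa2, Cyp26a1 and 8 genes that were lower at D6 than at D2, with a bar at the mean of each day (n = 3). Stra8, Col18a1, Bmp7, Grb10 and Cdh2 step down without overlap between the 3 days, Igfbp5 and Fras1 are low at D6 only, and the days overlap for Foxa2 and Cyp26a1.

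RA was in the medium throughout, yet genes known to respond to it did not share a course. Of 18 listed genes 1, Stra8, fell at D4, and Stra8 and Nrip1, the gene of a corepressor of nuclear receptors, fell by D6. List medians were -0.20 at D4 and -0.70 at D6, against 0.08 and 0.01 for all genes. Stra8 fell by 4.89 on the log2 scale from D2 to D6 (SE 0.50, adjusted p = 1.6e-04). Cyp26a1, the gene of the enzyme that degrades RA and a direct target of its receptors, had 2782, 4736 and 8951 normalised counts at D2, 5280, 8454 and 7809 at D4, and 15380, 7793 and 4096 at D6. Its days overlapped, with 0.39 from D2 to D4 (adjusted p = 1) and 0.66 from D2 to D6 (adjusted p = 0.592). Nrip1 had 8251, 7449 and 7364 at D2, 4483, 6245 and 4750 at D4, and 3703, 2347 and 1045 at D6 (-1.78, adjusted p = 0.0275), and its call was lost without D2 replicate 1, D2 replicate 2 or D6 replicate 2 (0.0757 to 0.0887). Dhrs3, whose enzyme turns retinal back to retinol, and Crabp2, which carries RA to the nucleus, had D6 against D2 values of -2.65 (adjusted p = 0.081) and -1.70 (adjusted p = 0.109). Rarb, an RA receptor gene and a target of RA, had -0.69 (adjusted p = 0.554).

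Because Stra8 fell and Cyp26a1 did not pass the test with the same ligand in the medium, their promoter windows are printed (RefSeq, GRCm38.p6, plus strand, 250 bases before to 50 after the start, 5′ to 3′). Stra8 is at chr6:34920698-34920997 and Cyp26a1 at chr19:37697558-37697857. Capitals mark matches to AGGTCA or AGTTCA, the half-sites that RA receptors bind, searched on both strands, where TGAACT is AGTTCA read on the other strand.
Stra8: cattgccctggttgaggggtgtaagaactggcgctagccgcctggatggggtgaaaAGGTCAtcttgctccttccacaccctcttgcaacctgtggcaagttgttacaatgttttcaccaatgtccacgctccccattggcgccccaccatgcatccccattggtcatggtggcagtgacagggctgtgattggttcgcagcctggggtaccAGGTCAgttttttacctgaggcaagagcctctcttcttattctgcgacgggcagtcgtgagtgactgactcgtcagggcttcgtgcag
Cyp26a1: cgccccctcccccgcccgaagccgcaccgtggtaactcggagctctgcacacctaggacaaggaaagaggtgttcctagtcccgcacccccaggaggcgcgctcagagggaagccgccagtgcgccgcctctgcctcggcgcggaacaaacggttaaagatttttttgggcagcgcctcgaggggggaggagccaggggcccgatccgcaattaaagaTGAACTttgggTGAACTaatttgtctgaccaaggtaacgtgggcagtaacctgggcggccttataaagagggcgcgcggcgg

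The Stra8 window held 2 half-sites, which begin at -194 and -38 from the RefSeq start. In the GENCODE annotation used for the counts Stra8 starts earlier, at chr6:34920163, so that this window lies inside the gene. In the Cyp26a1 window there were 2 as well, at -32 and -21, and these form a direct repeat with 5 bases between them. Of 32851 such windows, 27.7% held 1 or more of these half-sites, 5.23% held 2 or more and 0.0396% (13 windows) held a direct repeat with this spacing. A match gives letters only and says nothing of binding in these cells.

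The Hox genes, whose first members are switched on by RA in the embryo, mostly had negative log2 fold changes. Of 12 tested, 1 had a positive log2 fold change at D4, the median was -1.23 from D2 to D4, -1.11 from D4 to D6 and -2.70 from D2 to D6, and none was called by edgeR, whereas DESeq2 called 3 lower at D6 than at D2. Hoxb1 had 3030, 2081 and 2691 normalised counts at D2, 308.4, 382.2 and 287.3 at D4, and 16.29, 792.4 and 0 at D6. Its D4 libraries were below all D2 libraries, and the adjusted p at D4 was 0.591. Many of the other listed Hox genes lie inside other genes and are not measured.

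Markers of other cells that a sort could hold were examined by list. The median log2 fold change of the neural progenitor genes was -0.79 from D2 to D4 and -1.15 from D2 to D6. The list took 0.0381% to 0.0842% of the counts at D2, 0.029% to 0.0473% at D4 and 0.0155% to 0.0244% at D6. Of the list sum in normalised counts, Meis2 alone made up 18521 of 26127, 6713 of 12296 and 5282 of 13669 at D2. At D6 it made up 2704 of 7001, 3146 of 5357 and 3131 of 9119, so these shares depend strongly on this 1 gene. Pax6, a factor of neural progenitors, had 899.7, 546.3 and 1545 normalised counts at D2, 105.6, 113.9 and 139.7 at D4, and 142.5, 87.32 and 45.79 at D6 (-3.50 at D6 against D2, adjusted p = 0.0732). Meis2, a homeobox gene of the hindbrain and other tissues, was the 1 gene of this list called by edgeR (3 by DESeq2 at D6 against D2), from 18521, 6713 and 5282 at D2 to 2704, 3146 and 3131 at D6 (adjusted p = 0.0263), and without D2 replicate 1, D6 replicate 1 or D6 replicate 2 it was not (0.0625 to 0.22). The neuronal marker Dcx had 1.807, 75.65 and 59.18 at D2 and 0 in all D6 libraries. The part of neural cells in the falls described above was not tested.

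Naive pluripotency genes did not go down as a group. The median of the naive list was 0.80 from D2 to D4 and 0.60 from D2 to D6. Klf4 went from 186.1, 456.9 and 175.3 normalised counts at D2 to 1221, 1027 and 1138 at D4 and 3210, 2734 and 1251 at D6 (3.02 at D6, adjusted p = 0.00819), and Klf5 from 1014, 2716 and 3377 to 9543, 5476 and 6526 and then to 9495, 8708 and 9223 (1.84, adjusted p = 0.0165). Both are also expressed in epithelia, and Klf5 is in the gut endoderm list too. The genes that define the pluripotent state were low, with Nanog between 0.9033 and 379.8 and Pou5f1 between 1.127 and 789.2 over the 9 libraries. Zfp42 had 1100, 1049 and 458.1 at D2 and 993.5, 879.8 and 1860 at D6 (adjusted p = 0.847). The core and formative list had medians of 0.18 from D2 to D4, -0.11 from D4 to D6 and -0.20 from D2 to D6. Each of these medians changed sign in some fit with a library left out. Of this list edgeR called 0 genes and DESeq2 1 lower at D6 than at D2.

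Lists for gut endoderm, mesendoderm and notochord, neural crest and mesenchyme, trophoblast, and blood and endothelium held no call by edgeR at D4, and at D6 against D2 Klf5 alone was called. DESeq2 called 1 higher and 1 lower at D4 in the gut list, 1 lower in the mesendoderm list, 1 higher in the neural crest list and 0 in the other two. The mesenchymal marker Col1a1 ran from 0 to 227.6, the trophoblast marker Elf5 from 0 to 368.2 and the endothelial marker Kdr from 0 to 263.8 over the 9 libraries. Vim, the gene of the filament protein of mesenchymal and parietal endoderm cells, had 3773, 13075 and 8336 at D2, 12968, 27569 and 10587 at D4, and 19753, 29586 and 17434 at D6 (adjusted p = 0.218). Two-cell-like genes, whose many copies make their counts uncertain, gave no call with edgeR and 2 lower with DESeq2 at D6 against D2. Zscan4c had 1460 normalised counts in D2 replicate 3 and 0 to 23.58 in the other 8 libraries.

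Of 18 genes of the G2 and M phases and 16 tested S phase genes, edgeR called 0, whereas DESeq2 called 1 and 2 lower at D6 than at D2. Their medians were -0.38 and -0.36 from D2 to D4 and -0.68 and -0.51 from D2 to D6. All 18 of the G2 and M genes had a negative value at D4 and 17 at D6, as had 12 of the S phase genes on both days. Of all 19407 genes tested, 8900 were negative at D4 and 9587 at D6 against D2. The G2 and M share of the counts was 0.518% to 0.655% at D2, 0.33% to 0.525% at D4 and 0.343% to 0.471% at D6. Mki67, a marker of cycling cells, had 34439, 34693 and 28611 normalised counts at D2, 30175, 31672 and 24412 at D4, and 29853, 38058 and 23244 at D6. Of 21 glycolysis genes, Pfkl (1.20, adjusted p = 0.0246) and Ldha (1.21, adjusted p = 0.0217) were higher at D6 than at D2 and the glucose transporter gene Slc2a1 was lower (-2.01, adjusted p = 0.00479). The calls of Pfkl and Ldha were both lost without any D2 replicate, D6 replicate 1 or D6 replicate 2 (adjusted p from 0.0542 to 0.162). Insig1, a brake on cholesterol synthesis, rose from 2816, 2446 and 5922 at D2 to 9023, 11821 and 7943 at D4 and 22016, 28646 and 14142 at D6 (2.46 at D6, adjusted p = 0.00214), while edgeR called none of the other 16 tested genes of that list and DESeq2 1 of them.

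To see which of these changes set Sox1-FOXA2+ cells apart from FOXA2- cells, both FOXA2- populations of the same days were compared with them. The change in Sox1-FOXA2+ cells was set against that in each, in a fit of 27 libraries. Sox1+FOXA2+ cells, which share the FOXA2 gate, were left out. Whether the differences below also hold against them was not tested. From D2 to D4, 14 of 26402 genes changed differently from Sox1-FOXA2- cells (0.053% of the genes tested) and 11 from Sox1+FOXA2- cells (0.0417%), all with the higher change in Sox1-FOXA2+ cells. A fit of all 39 sorted libraries called 0 and 3, and in it Lama1 was not called against either population (adjusted p = 0.0953 and 0.0593). In Sox1-FOXA2- cells Lama1 went from 2412, 1656 and 1793 normalised counts to 1498, 918 and 1840 at D4 and to 1416, 1522 and 1462 at D6. The Sox1+FOXA2- libraries held 5195, 3325 and 1547 at D2 and 3578, 1540 and 1316 at D4. The log2 change of Lama1 in Sox1-FOXA2+ cells exceeded that in Sox1-FOXA2- cells by 4.66 and that in Sox1+FOXA2- cells by 4.85. Lamc1 (3.69 from Sox1-FOXA2- and 4.07 from Sox1+FOXA2- cells), Plod2 (3.38 and 3.52), P4ha1 (2.83 and 2.76) and Lrpap1 (4.04 and 3.26) also differed from both. Hs3st1 was called against Sox1-FOXA2- cells (4.69) and Lamb1 against Sox1+FOXA2- cells (3.64). The comparisons share the Sox1-FOXA2+ libraries, and the call of Hs3st1 was lost without any of 6 single libraries, among them D2 replicates 1 and 2 and D4 replicate 3 of Sox1-FOXA2+ cells (adjusted p from 0.0524 to 0.123).

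From D4 to D6, 1 gene differed from Sox1-FOXA2- cells (0.00379%) and 2 from Sox1+FOXA2- cells (0.00758%), all lower in Sox1-FOXA2+ cells. The 1 gene was Slit2, an axon guidance ligand, which had 942.9, 1153 and 4247 normalised counts at D4 and 370.5, 187.7 and 1766 at D6 in Sox1-FOXA2+ cells and 675.5, 218.6 and 367.2 and then 7667, 2366 and 6789 in Sox1-FOXA2- cells (difference of -5.25 ± 0.86, adjusted p = 0.023). It was named after its values were seen. The other 2 were Lgi2 and Dusp27, with adjusted p = 0.0462 each. All 3 calls are gone with DESeq2 size factors in place of TMM, which called 0 in both comparisons. No gene differed from Sox1-FOXA2- cells without D4 replicate 3 or D6 replicate 2 of Sox1-FOXA2+ cells, or without D4 replicate 2 or 3 or D6 replicate 1 or 3 of Sox1-FOXA2- cells, while 26 did without D6 replicate 1 of Sox1-FOXA2+ cells.

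From D2 to D6, 65 genes differed from Sox1-FOXA2- cells (0.246%), 34 higher and 31 lower, and 79 from Sox1+FOXA2- cells (0.299%), 65 higher and 14 lower. With DESeq2 size factors the second split was 60 higher and 24 lower. Without D6 replicate 1 of Sox1-FOXA2+ cells the splits were 28 higher and 70 lower, and 47 higher and 53 lower, and with the DESeq2 Wald test 836 and 1005, and 859 and 901, so that the side with more calls was not stable. Col4a1 rose in Sox1-FOXA2+ cells and stood at 3438, 2065 and 1211 normalised counts at D2 and at 2331, 2359 and 1987 at D6 in Sox1-FOXA2- cells (difference of 4.91). Pdpn was at 178, 682.5 and 118.3 at D2 and 350.8, 176.4 and 140.7 at D6 in the latter (difference of 5.95). The clearest difference in the other direction was of Ptn, the gene of the growth factor pleiotrophin, whose mean in Sox1-FOXA2+ cells was 620.3 at D2 and 98.01 at D6, while Sox1-FOXA2- cells went from 347.9, 135.6 and 223.6 to 13320, 9820 and 9802 (difference of -8.09). The mean of Sfrp2, the gene of a secreted Wnt antagonist, in Sox1-FOXA2+ cells went from 463.6 at D2 over 222.1 at D4 to 4.072 at D6, while the Sox1-FOXA2- libraries held 377.1, 461 and 543.4 at D2 and 221.3, 471.6 and 1451 at D6 (difference of -7.29). The call of Pdpn was lost without D2 replicate 1 of Sox1-FOXA2+ cells or D2 replicate 2 of Sox1-FOXA2- cells (adjusted p = 0.0589 and 0.0876), and that of Col4a1 without the former (0.0564).

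**Figure D5:**
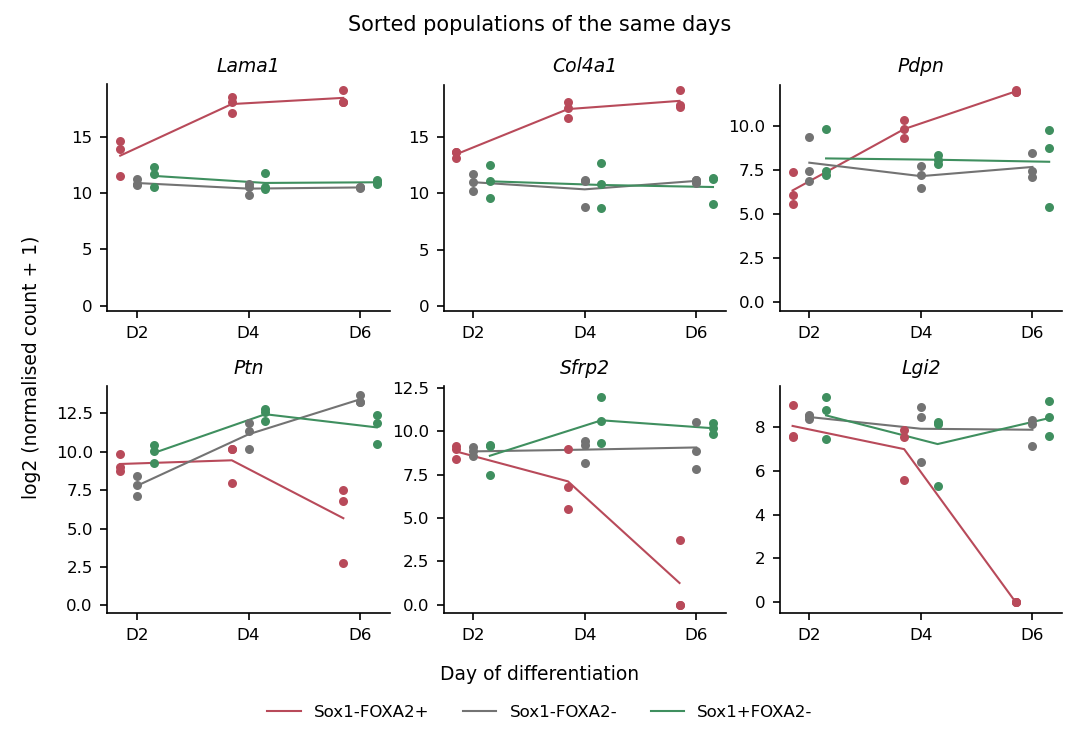
Log2 of normalised counts plus 1 at D2, D4 and D6 in Sox1-FOXA2+ (red), Sox1-FOXA2- (grey) and Sox1+FOXA2- (green) libraries for 6 genes named for the size of their difference. Points are libraries (n = 3 per population and day), shifted sideways for legibility, and lines join the means of the log2 values. Lama1, Col4a1 and Pdpn climb in Sox1-FOXA2+ cells, while Ptn, Sfrp2 and Lgi2 drop in them by D6, to 0 in all 3 libraries for Lgi2.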

How the data were processed

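Per the labels and the study's methods, RNA of FACS sorted cells was made into libraries with a stranded SMART-Seq kit and sequenced on a NovaSeq6000, and the authors deposited raw read counts per gene, made with STAR, SAMtools and featureCounts on GENCODE M21 (GRCm38). Tool versions and the strand and multimapping settings are not given in the sources used here. The deposited counts behave as counted over gene spans without strand. The 92 lines that name no gene hold 0 counts.

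The 9 libraries of Sox1-FOXA2+ cells were fitted together with edgeR 4.0.16 (quasi-likelihood test, TMM, low counts removed by filterByExpr at 10 per library and 15 in total, prior count 0.125) in R 4.3.3. Adjusted p are Benjamini-Hochberg values over all genes tested, with a threshold of 0.05, and are two-sided. Differences between populations came from the interaction of day and population in a fit of 27 sorted libraries, and normalised counts from DESeq2 1.42.0 size factors over all 57 libraries. Figures were drawn with matplotlib 3.10.9. The scripts were tested on simulated data. No libraries were identical.

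Members and gene lists were chosen with earlier results of these data known. Genes were named if they are Foxa2 or Sox1, if they belong to a list, or if they had one of the 10 largest changes in a direction among called genes whose days did not overlap, with a mean of at least 50 normalised counts on the higher day (where fewer than 5 were called, the 5 smallest p, said to be not called). Of the differences between populations, up to 5 per direction were named. Same-numbered libraries of D4 and D6 deviated together from their day means (correlations of 0.213, 0.316 and 0.229 over 5000 genes), so the numbers were taken to pair them. Those of D2 did not pair with D4 or D6.

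Alternatives were the DESeq2 Wald test, its size factors in edgeR, all 39 sorted libraries in the fit, no filter, the replicate block, and each library left out. Bounds on folds without 1 library were added after seeing the data. A library total limits only counting error, which was not compared here with the spread between replicates.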

Additional observations from a re-analysis of the deposited data

Results flagged for a closer look

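In the fit of 27 libraries some genes changed differently in Sox1-FOXA2+ cells than in another sorted population (edgeR interaction test, adjusted p under 0.05). Each value is the log2 change in Sox1-FOXA2+ cells minus that in the other cells.

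Against Sox1-FOXA2- cells, the differences from D2 to D4 were 4.69 for Hs3st1, 4.66 for Lama1, 4.04 for Lrpap1, 3.96 for Prkaa2 and 3.93 for Retreg1. Prkaa2, the gene of a catalytic subunit of AMP-activated kinase, had 540.2, 555.1 and 1177 normalised counts at D2 and 6183, 6591 and 4654 at D4 in Sox1-FOXA2+ cells. Retreg1, a receptor for the degradation of endoplasmic reticulum, had 554.6, 1024 and 846 and then 7030, 3806 and 5227. From D2 to D6 the positive differences were 5.95 for Pdpn, 5.20 for Lama1, 5.07 for Hs3st1, 4.91 for Col4a1 and 4.83 for Ankrd33b. The negative ones were -10.92 for Lgi2, -8.09 for Ptn, -7.29 for Sfrp2, -5.62 for Igfbp3 and -5.30 for Igfbp5.

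Against Sox1+FOXA2- cells, the differences from D2 to D4 were 4.85 for Lama1, 4.07 for Lamc1, 3.64 for Lamb1, 3.55 for Epas1 and 3.52 for Plod2. Epas1, the gene of the hypoxia-inducible factor HIF2A, went from 766, 566.4 and 4062 normalised counts to 19980, 26815 and 20887 and then to 58494, 70970 and 50309 in Sox1-FOXA2+ cells. From D4 to D6 they were -11.29 for Lgi2 and -5.85 for Dusp27. From D2 to D6 they were 6.59 for Tinagl1, 5.72 for Col4a1, 5.65 for Lama1, 5.52 for Ccn2 and 5.40 for Pdpn, and -11.11 for Lgi2, -7.99 for Sfrp2, -5.53 for Map1a, -5.20 for Dusp27 and -4.20 for Ptn. Since Lgi2 had no count in any D6 library of Sox1-FOXA2+ cells, its fitted values depend on the prior count and are not bounds.

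Dusp27 and Lgi2 from D4 to D6 had adjusted p of 0.0462 and lost their calls without most single libraries, with adjusted p up to 0.274 and 0.209. The calls of Lama1 held without any single library in both comparisons named.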

How the results depend on the processing

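Over all alternatives, the log2 values of called genes kept their sign (0 of 2513 turned), while 117 of 3251 values of genes that were not called and 83 of 1386 list medians turned. Among these are Foxa2 from D4 to D6, the endocytic receptors from D4 to D6 and the visceral endoderm carriers from D2 to D4. The median of all genes from D4 to D6 was -0.06 with TMM and 0.04 with size factors. Counts of called genes changed too. For D4 against D2 (123 in all), the DESeq2 Wald test called 556, the fit of 39 sorted libraries 26, no filter 297 and the replicate block 214. For D6 against D4 these were 154, 1, 49 and 4, and for D6 against D2 (384) 1456, 146, 768 and 627. DESeq2 called all 123 of the first set and 383 of the 384. The 39-library fit kept 26 and 133 of them. For the difference from Sox1-FOXA2- cells, DESeq2 called 1431, 1246 and 1841 for the 3 comparisons in the same order, the 39-library fit 0, 0 and 23, no filter 113, 90 and 383, and the replicate block 37, 5 and 150, with size factors at 0 for D6 against D4. For the difference from Sox1+FOXA2- cells, these were 1065, 839 and 1760, then 3, 0 and 27, then 121, 29 and 341, then 26, 1 and 173, with size factors again at 0 for D6 against D4. D2 numbers did not pair with other days, so the block adds no paired evidence there.

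With each library left out, the counts ranged from 78 to 223 for D4 against D2, from 0 to 7 for D6 against D4 and from 229 to 579 for D6 against D2. Differences from Sox1-FOXA2- cells ranged from 6 to 25, from 0 to 26 and from 40 to 119, and those from Sox1+FOXA2- cells from 8 to 31, from 0 to 17 and from 46 to 126. Among the libraries of Sox1-FOXA2+ cells, 26 and 17 came without D6 replicate 1, 6 and 46 without D2 replicate 1, 23, 113 and 126 without D6 replicate 3, 98 without D6 replicate 1 and 20 without D2 replicate 3. Of the other populations, Sox1-FOXA2- D4 replicate 2 (8 and 119), D6 replicate 2 (25) and D2 replicate 3 (40) and Sox1+FOXA2- D4 replicate 1 (31) moved a count by over 1.5 times, besides D6 against D4, where most libraries moved the few calls. The cause of these shifts was not tested. Among called genes named for D4 against D2, size factors ended 1 call, that of Pdgfra (adjusted p = 0.0501).

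With 3 libraries a day, small changes could not be called (the smallest called was 1.04 on the log2 scale), low genes are poorly measured, and genes inside other genes are not measured at all. Reporter gates, a single clone and bulk RNA limit what the change of a gene says of any one cell.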
